A study of Homo sapiens with 8 samples.

Results

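The fibrinogen chains FGA, FGB and FGG, the plasma proteins transferrin (TF), ceruloplasmin (CP) and alpha-1-antitrypsin (SERPINA1), and the liver-type genes AADAC, A1CF and HNF4A were examined in the lung adenocarcinoma lines A549 and HCC827. The list was chosen by symbol on signals of these same arrays, namely the difference between the lines and, for TF and CP, the scaffold difference, and each gene was represented by its probe set with the highest mean over all arrays. Of the 9 listed genes, 8 had a probe set annotated to that symbol alone (26 probe sets), among 18244 genes measured in all; HNF4A was not analysed here. Of these 8, all passed the filter on low signal (above the median of the array on at least 2 arrays). FGA, FGG, AADAC and A1CF (4 of the 8) passed it through A549 arrays alone and therefore had to differ between the lines.

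The study hybridised 8 expression arrays, 1 for each combination of line, culture and treatment. A549 carries no activating EGFR mutation and HCC827 carries one. 2D cells were kept for 7 days on dishes of 21 square centimetres, seeded with 200000 cells; 3D cells were kept for 14 days on a collagen scaffold, seeded with 100000 cells. Treated cells received the EGFR inhibitor gefitinib at 1 µM, in 3D for the last 3 days from day 11, and controls received no inhibitor. The labels also name a start at 4 days, again for 3D, and how long 2D cells were treated was not given in the sources used here. No condition had a replicate. Both are established lines grown without other cells named in the labels, and signals are log2 values on which levels of different probe sets cannot be ranked.

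Fibrinogen is made from an alpha (FGA), a beta (FGB) and a gamma (FGG) chain, which assemble in pairs; thrombin cuts the alpha and beta chains, and the product polymerises into fibrin. Hepatocytes are the main source of these proteins in the body, and their genes respond to interleukin 6 (IL-6) and glucocorticoid in the acute-phase response. HNF1 and HNF4A are transcription factors of the liver and gut that bind many promoters of plasma protein genes. Transferrin carries iron, ceruloplasmin is a copper-carrying ferroxidase, and alpha-1-antitrypsin inhibits neutrophil elastase, a function best known for protecting the lung. AADAC is a microsomal deacetylase of the liver, and A1CF is the RNA-binding cofactor of apolipoprotein B mRNA editing.

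Promoter sequence is shown for the fibrinogen chains, which shared the gap between the lines on which they were listed, and for SERPINA1, which ran the other way. Each line gives the 250 bases before a transcription start in RefSeq (GRCh38.p14), 5′ to 3′ on the strand of the gene; FGB and SERPINA1 each have 2 starts in the table, and 1 is shown. Capitals mark CTGGGA, the core of the IL-6 response element, and GTTAAT, the core of the HNF1 site, or their reverse complements TCCCAG and ATTAAC; no marked stretches overlap.
FGA, chr4:154590743-154590992, minus strand: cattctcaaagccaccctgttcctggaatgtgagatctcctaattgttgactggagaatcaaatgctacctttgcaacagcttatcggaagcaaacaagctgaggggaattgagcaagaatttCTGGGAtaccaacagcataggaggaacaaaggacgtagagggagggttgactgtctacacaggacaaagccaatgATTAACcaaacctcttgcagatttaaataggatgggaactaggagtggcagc
FGB, chr4:154562730-154562979, plus strand: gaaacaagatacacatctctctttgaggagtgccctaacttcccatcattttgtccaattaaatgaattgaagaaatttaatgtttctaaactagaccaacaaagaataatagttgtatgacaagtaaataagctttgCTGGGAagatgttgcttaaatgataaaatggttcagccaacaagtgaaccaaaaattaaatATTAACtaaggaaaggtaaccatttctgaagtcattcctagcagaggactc
FGG, chr4:154612657-154612906, minus strand: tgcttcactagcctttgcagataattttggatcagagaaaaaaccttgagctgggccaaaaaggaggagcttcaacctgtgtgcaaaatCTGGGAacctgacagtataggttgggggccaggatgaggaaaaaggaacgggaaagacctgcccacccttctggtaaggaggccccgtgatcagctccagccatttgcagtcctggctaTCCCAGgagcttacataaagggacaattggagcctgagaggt
SERPINA1, chr14:94388603-94388852, minus strand: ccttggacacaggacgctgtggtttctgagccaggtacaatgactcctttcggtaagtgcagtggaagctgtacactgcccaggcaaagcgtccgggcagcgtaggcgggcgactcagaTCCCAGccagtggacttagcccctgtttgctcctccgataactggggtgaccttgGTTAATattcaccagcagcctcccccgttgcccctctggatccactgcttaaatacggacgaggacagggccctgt

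CTGGGA was present in each of the 3 fibrinogen windows, 127 to 122 bases before the start in FGA, 112 to 107 in FGB and 161 to 156 in FGG, where a reverse copy also lay at 42 to 37. GTTAAT was present, in reverse, at 52 to 47 in FGA and 51 to 46 in FGB, and in the forward direction at 76 to 71 in SERPINA1, which also held CTGGGA in reverse at 131 to 126. The FGG window held no GTTAAT. Of 35116 promoter windows of the same length, 28.7% held CTGGGA on either strand, 6.23% held GTTAAT and 1.29% held both. The table held 12 windows of 8 listed genes (not CP); 7 held CTGGGA, 5 held GTTAAT and 5 held both. Neither string was found in the windows of TF or AADAC, and A1CF held CTGGGA. HNF4A and SERPINA1 each had 1 of 2 windows with both strings and 1 with neither. The SERPINA1 window shown is the one with both. The 2 FGB windows overlap and hold the same sites, which are therefore counted in each. A match of letters is a description and was not tested for binding.

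Array medians lay between 7.27 and 7.34. The actin 3′ minus 5′ signal, a measure of RNA integrity, was 1.67 to 2.64 on the 3D arrays and -0.14 to -0.05 on the 2D arrays, and that of GAPDH was 0.54 to 1.57 against -0.04 to 0.01. RNA of the 3D and 2D samples was also extracted with different kits, so culture, age of the culture and RNA preparation cannot be told apart. The ERK-driven phosphatase gene DUSP6 stood at 11.48 on the HCC827 3D control array and 8.16 with gefitinib, but at 6.57 on the 2D array labelled control and 10.22 on that labelled gefitinib, and ETV5 moved in the same way (9.15 and 7.36 in 3D, 6.95 and 9.47 in 2D). The HCC827 2D arrays are therefore named by their labels. Of the 9 hepatocyte markers, AFP, APOA1, APOB, TAT and CYP3A4 (5) lay below the median of every array; 3 to 4 lay above it on the A549 arrays and 0 on those of HCC827. CPS1, the mitochondrial urea cycle enzyme, was high in A549 (10.97 to 12.18) and low in HCC827 (6.16 to 6.35). Of the 4 hepatocyte markers that passed the filter, 2 were higher and 1 lower in A549 3D than 2D. Of all tested genes, 16.3% were higher and 6.01% lower. CPS1 was lower by -1.03 ± 0.12 (limma adjusted p = 0.0185), and TTR (0.52 ± 0.09, 0.0311) and AHSG (0.49 ± 0.10, 0.0365) were higher. AHSG passed the filter through A549 3D arrays alone and therefore had to be higher there. Albumin (ALB) was 7.50 to 7.70 in A549, just above the medians, and 6.47 to 6.61 in HCC827. Liver-type is used here for where the genes are best known, with part of the hepatocyte markers present in A549. Of 10 fibroblast, leukocyte and endothelial markers, DCN, PDGFRB, PTPRC, CD3E and CDH5 (5) lay below the median of every array. CD68 lay above it on all 8 (8.51 to 10.16), LUM on 4 (up to 9.93 on the HCC827 2D array labelled control), PECAM1 on 3, and KDR and COL1A1 on 2 each, both of HCC827. Their part in the results was not tested.

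The fibrinogen chains were the members with the widest gap between the lines. FGA (probe set 11757350_x_at) read 12.46 and 12.86 in A549 2D (control, then gefitinib) and 13.92 and 13.93 in A549 3D, and 7.01, 6.77, 6.80 and 7.17 on the corresponding HCC827 arrays. All A549 arrays were high, all HCC827 arrays lay below the array median, and the lines did not overlap. FGB (11755934_x_at), the beta chain, read 12.68, 12.87, 13.64 and 13.57 in A549 in the same order, and 6.67, 6.36, 7.85 and 6.81 in HCC827. Its HCC827 3D control array, at 7.85, was the only HCC827 array above the array median for a fibrinogen chain. FGG (11724508_s_at), the gamma chain, read 12.24, 12.66, 12.70 and 12.84 in A549 against 6.24, 6.27, 6.21 and 6.78 in HCC827. The lowest A549 value exceeded the highest HCC827 value by 5.28 for FGA, 4.83 for FGB and 5.46 for FGG.

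**Figure D1:**
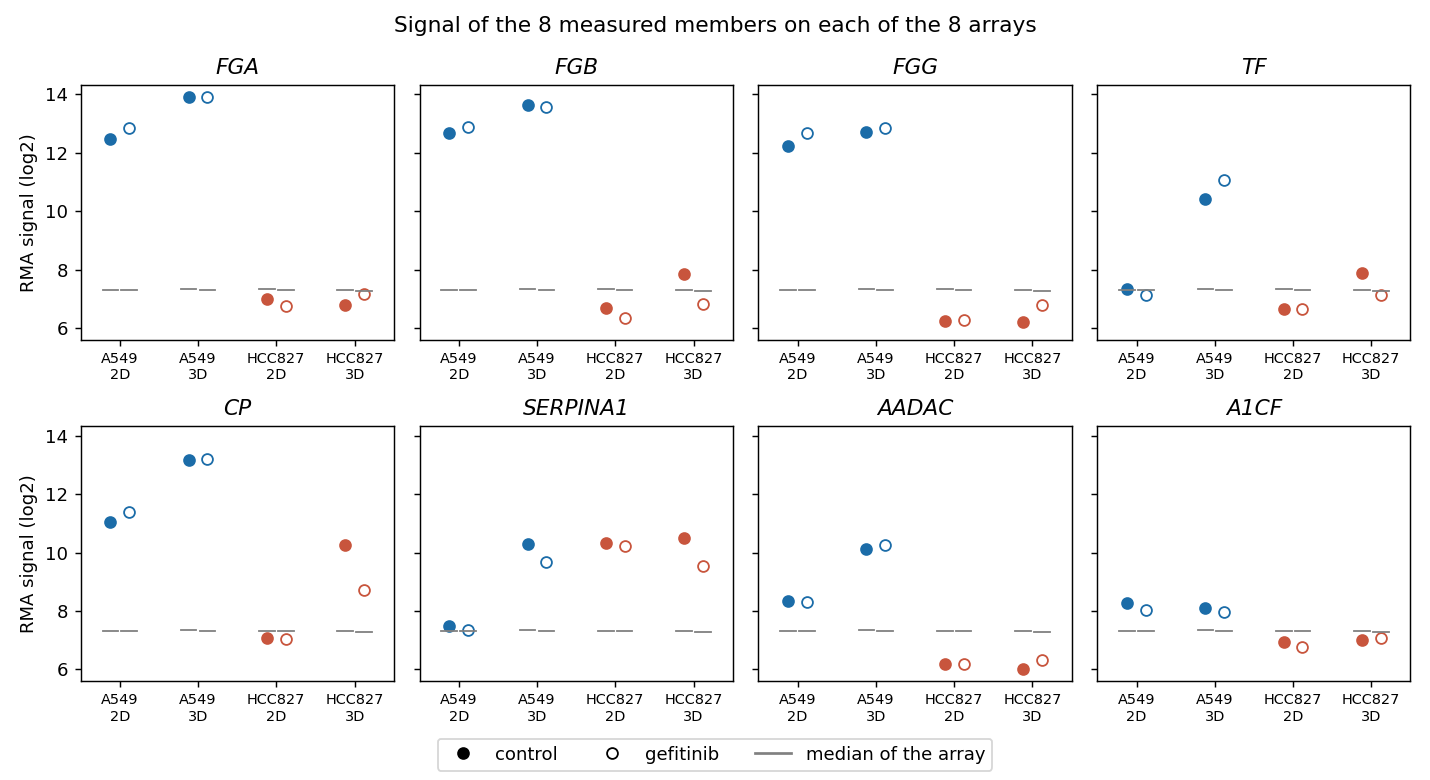
Signal (log2, y axis) of the 8 measured genes on each array, by line and culture (x axis), with filled points for control, open points for gefitinib and short grey lines at the median of that array. The fibrinogen chains stand between 12.24 and 13.93 in A549 and at or below 7.85 in HCC827, while SERPINA1 is near the array median only in A549 2D.

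Because the list was proposed with this contrast known, the difference between the lines is a description with no test. HCC827 minus A549 averaged -6.35 for FGA, -6.27 for FGB and -6.23 for FGG, which are 81.6-fold, 77.0-fold and 75.3-fold on the linear scale; the HCC827 side lies mostly in the range of unexpressed probe sets, so these folds depend on the array's background. CP averaged -3.93, AADAC -3.08, TF -1.91 and A1CF -1.14, and SERPINA1 ran the other way at 1.44. For 6 of the 8 genes every A549 array lay above every HCC827 array, where 18.2% of the 11926 genes tested did so. TF and SERPINA1 overlapped between the lines. The fibrinogen result did not rest on the probe set: over the 5 probe sets of FGA the mean difference ranged from -7.13 to -2.62, over the 4 of FGB from -6.43 to -2.68 and over the 2 of FGG from -6.23 to -4.93.

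Profiles were compared by the root-mean-square distance over the 8 arrays between log2 values, each gene set to its own mean, a measure dominated by the gap between the lines on which the list was chosen, and so a description. For FGA the closest of all tested genes was FGG, at 0.35, and FGB ranked 4 at 0.47. For FGB, FGA ranked 4 and FGG 5 (0.50), and for FGG, FGA ranked 4 and FGB 9. Outside the members, the closest to FGA were UCHL1 (0.38), S100A4 (0.40) and AKR1C1 (0.50), those to FGB were UCHL1 (0.30), S100A4 (0.40) and CA12 (0.47), and those to FGG were UCHL1 (0.22), AKR1C1 (0.25) and S100A4 (0.30). The median distance of 11918 genes was 3.204 from FGA, 3.16 from FGB and 3.12 from FGG.

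The fibrinogen genes lie side by side on chromosome 4, and the protein-coding neighbours did not share their pattern. The neighbours in order are DCHS2 and PLRG1 on the FGB side and LRAT and RBM46 on the FGG side. DCHS2, LRAT and RBM46 did not pass the filter: they read 6.65 to 6.93, 6.36 to 6.59 and 5.73 to 6.23 over the arrays, and averaged 0.05, -0.05 and 0.17 between HCC827 and A549. PLRG1, a spliceosome subunit gene, was higher in HCC827 by 0.51 ± 0.11 (SE of the fit; limma adjusted p = 0.0233).

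Ceruloplasmin was high in A549 and was present in HCC827 only on the scaffold arrays. CP (11726981_a_at) read 11.06 and 11.38 in A549 2D (control, then gefitinib) and 13.17 and 13.21 in A549 3D. In HCC827 it read 7.07 and 7.05 in 2D, below the array median, and 10.26 and 8.73 in 3D. Every 3D array was above both 2D arrays of its line. Transferrin followed the scaffold mainly in A549. TF (11719658_a_at) read 7.34 and 7.12 in A549 2D, at the array median, and 10.43 and 11.07 in A549 3D, against 6.65 and 6.67 in HCC827 2D and 7.89 and 7.13 in HCC827 3D. Its A549 2D arrays lay within the HCC827 range and its A549 3D arrays far above it.

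Alpha-1-antitrypsin had another order. SERPINA1 (11721456_x_at) read 7.50 and 7.34 in A549 2D, 10.31 and 9.66 in A549 3D, 10.33 and 10.21 in HCC827 2D and 10.51 and 9.54 in HCC827 3D. In 2D, HCC827 stood above A549 by 2.83 (control arrays) and 2.87 (gefitinib arrays), whereas in 3D the difference was 0.20 and -0.12. On the scaffold A549 thus lay within the HCC827 range, and only the A549 2D arrays were low.

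AADAC (11744163_at) read 8.36 and 8.30 in A549 2D and 10.12 and 10.25 in A549 3D, against 6.17, 6.19, 6.005 and 6.32 on the HCC827 arrays in the same order, all below the array median. A1CF (11746909_a_at) read 8.28, 8.04, 8.09 and 7.96 in A549 and 6.94, 6.78, 7.02 and 7.08 in HCC827. A1CF was the flattest member in A549, with an SD of 0.13 over its 4 arrays, against 0.75 for FGA, 2.05 for TF and 1.505 for SERPINA1.

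Related genes came from lists also made with earlier results known, so their counts are not independent evidence of direction. They were compared between the lines with limma over all 11926 genes, of which 48.1% passed, 22% as higher and 26.1% as lower in HCC827. A gene above the array median in 1 line only had to differ, so counts are given for genes above it on at least 1 array of both lines (10742 genes, of which 19.3% were higher and 24.6% lower in HCC827, with a median of -0.03). Of 34 other plasma proteins of the hepatocyte, 32 were measured and 15 passed the filter, 10 of them through A549 arrays alone and 1 through HCC827 arrays alone. Of the 4 present in both lines, 2 were lower and 0 higher in HCC827: vitronectin, VTN (-3.66 ± 0.15, adjusted p = 0.000391), and the plasmin inhibitor SERPINF2 (-0.51 ± 0.07, 0.00757). Among those that passed through A549, and therefore without a test, the retinol carrier RBP4 differed by -5.08, the fibrinogen-like protein FGL1 by -5.06 and apolipoprotein H, APOH, by -3.55. The acute-phase protein SAA1 passed through HCC827 and stood 3.29 higher there; its transcript is nearly identical to that of SAA2. The other 17 measured genes, among them haptoglobin (HP) and plasminogen (PLG), did not pass the filter.

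**Figure D2:**
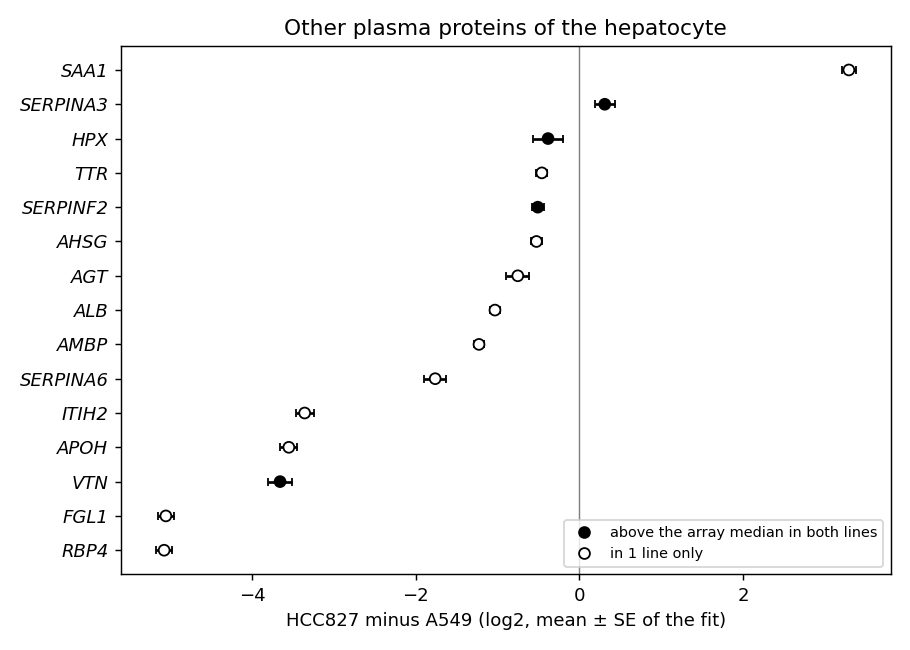
Difference between the lines (log2, x axis, mean with SE of the fit) for the 15 plasma protein genes outside the members that passed the filter (y axis), filled for the 4 above the array median in both lines and open for those above it in 1 line only. RBP4 and FGL1 lie near -5 and SAA1 lies at 3.29, all of them open points.

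Regulators of liver genes and the coagulation genes divided as follows, again over genes present in both lines. Of 5 liver and endoderm transcription factors, 2 were lower in HCC827 and 1, HNF4G, was higher (1.34 ± 0.15, limma adjusted p = 0.00362), with a median of 0.08. CEBPA and FOXA2 passed the filter through A549 arrays alone and are given without a test, at -2.03 and -1.13. Of 10 genes of IL-6 and glucocorticoid signalling, which drive fibrinogen synthesis in liver, 3 were higher and 2 lower, among them the kinase JAK1 (1.56 ± 0.11, 0.00133) and the glucocorticoid receptor NR3C1 (-1.23 ± 0.14, 0.00399). IL6 itself passed through HCC827 arrays alone. Of 11 coagulation factors and regulators, 7 were lower, including thrombomodulin, THBD (-1.68 ± 0.10, 0.00095), and TFPI2 (-1.64 ± 0.23, 0.00695), and 1 was higher, the tissue factor gene F3 (4.78 ± 0.14, 0.000242). The median of this list was -1.14. Of 14 iron and copper genes, 7 were lower, including the iron exporter SLC40A1 (-2.31 ± 0.28, 0.00472), and 2 higher, with a median of -0.39. Of 6 esterases and APOB editing partners, 2 were lower, led by the liver carboxylesterase CES1 (-3.57 ± 0.13, 0.000321), and 2 higher, with a median of -0.07. Over all list genes that passed between the lines (48, those above the median in 1 line included), 25 to 26 still did without any 1 of the A549 arrays and 48 without any 1 of the HCC827 arrays. Genes above the median in 1 line only had to differ, so this count describes the fits and is no support for a difference between the lines. Of all genes, 5736 passed between the lines with all arrays. That number was 1780 to 1811 without 1 of the A549 arrays and 8237 to 8557 without 1 of the HCC827 arrays.

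Several members were higher in 3D than in 2D in A549. TF was higher in 3D by 3.10 in the control pair and 3.95 in the gefitinib pair, a mean of 3.52 or 11.5-fold, and CP by 2.11 and 1.83, a mean of 1.97 or 3.93-fold; both were listed with this difference known, and it is given without a test. Of the other 6 genes, 3 passed as higher in 3D, where 16.3% of all tested genes did so, and 0 as lower. In both pairs alike, 3D exceeded 2D by 1 or more for the same 3 of these 6 genes, where 5.32% of all tested genes did so. The genes were SERPINA1 (2.81 and 2.32 in the pairs; mean 2.56 ± 0.26, 5.91-fold, limma adjusted p = 0.0178), AADAC (1.76 and 1.95; 1.86 ± 0.13, 3.62-fold, 0.0177) and FGA (1.46 and 1.07; 1.26 ± 0.21, 2.40-fold, 0.0271). FGB stood at 0.83 ± 0.22 (adjusted p = 0.0619, and 0.0383 with cyclic loess), FGG at 0.32 ± 0.19 (0.263) and A1CF at -0.13 ± 0.11 (0.411). In bulk RNA, more cells expressing a gene and more RNA per cell cannot be told apart.

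**Figure D3:**
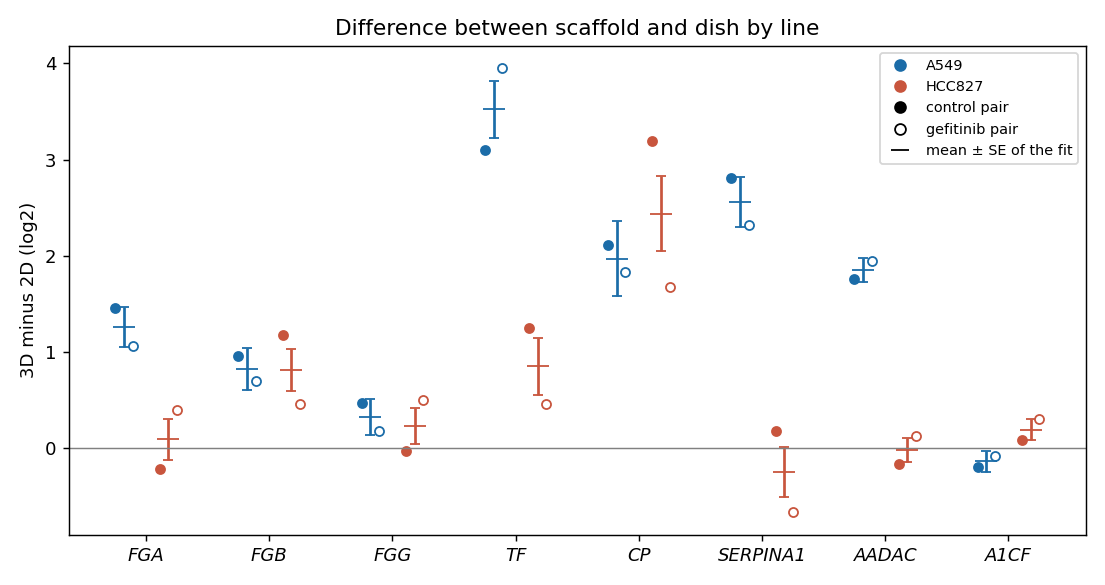
Difference between 3D and 2D (log2, y axis) for each gene (x axis), with points for the control pair (filled) and the gefitinib pair (open) and bars for the mean and SE of the fit, in A549 and HCC827. TF in A549 (3.10 and 3.95) has the widest differences, and SERPINA1 and AADAC are above 1.7 in both A549 pairs and between -0.66 and 0.18 in the HCC827 pairs.

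These p-values rest on a fit without replicates, whose residual is the change of the gefitinib difference between cultures. When any 1 of the 4 A549 arrays (control or gefitinib, 3D or 2D) was left out, the spread came from HCC827 alone. Neither the members nor any other gene then passed. SERPINA1 stood at 2.32 to 2.81, AADAC at 1.76 to 1.95 and FGA at 1.07 to 1.46. Without both HCC827 2D arrays, 5 of the 6 passed, with FGB at 0.83 (adjusted p = 2.90e-05) and FGG at 0.32 (0.0120) added, as the spread then came from A549. In that fit 64.6% of all genes passed. The same number of members passed without any 1 of the 4 HCC827 arrays, where 64.4% to 64.7% of all genes did.

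In HCC827 the scaffold differences were smaller for most of the genes tested. CP was higher in 3D by 3.196 in the control pair and 1.68 in the gefitinib pair, a mean of 2.44 or 5.41-fold, and TF by 1.25 and 0.46, a mean of 0.86, again as descriptions. Of the 6 genes not listed for this difference, 0 were at 1 or more in both pairs, where 4.35% of all tested genes were. Of the other 6 genes, 0 passed, against 33.4% of all tested genes in either direction and 19.7% as higher, and 1, FGB, had an unadjusted p under 0.05: it stood at 1.18 and 0.46 in the pairs, a mean of 0.82 ± 0.22 (limma adjusted p = 0.0509), and passed with cyclic loess (1.04, 0.0192) and with arrays centred on their medians (0.85, 0.0426). FGA (0.10 ± 0.21, 0.748), FGG (0.24 ± 0.19, 0.371), SERPINA1 (-0.24 ± 0.26, 0.509), AADAC (-0.02 ± 0.13, 0.918) and A1CF (0.19 ± 0.11, 0.231) did not pass. FGA, FGG, AADAC and A1CF lay below the array median on every HCC827 array, so a change of theirs there was barely measurable. Without the HCC827 3D control or the 2D control array 4 passed (FGA at 0.40, FGB at 0.46, FGG at 0.50 and SERPINA1 at -0.66), where 64.4% and 64.8% of all genes did. Without the 3D gefitinib or the 2D gefitinib array FGB alone passed, at 1.18, where 57.9% and 58.4% of all genes did.

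The change between lines was tested as an interaction. HCC827 minus A549 in the 3D minus 2D difference was -2.81 ± 0.37 for SERPINA1 (limma adjusted p = 0.148), -1.87 ± 0.18 for AADAC (0.131) and -1.17 ± 0.30 for FGA (0.235). AADAC and FGA lay below the array median on every HCC827 array, so for them this value mostly restates the A549 difference. None of the 6 genes passed, as 0% of all tested genes did, although these 3 had an unadjusted p under 0.05 (1696 genes did in all). For FGB the difference was -0.01 ± 0.31 (0.993), for FGG -0.09 ± 0.26 (0.918) and for A1CF 0.33 ± 0.15 (0.432). SERPINA1, AADAC and FGA passed without any 1 of the 4 HCC827 arrays (SERPINA1 at -3.23 without the 3D control or the 2D control array and at -2.39 without the 3D gefitinib or the 2D gefitinib array), and A1CF passed without either control array (0.44). In these fits 29.8% to 38.2% of all genes passed. AADAC also passed without the line-by-treatment term (adjusted p = 0.0277).

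As the mean of both lines, 4 of the 6 genes were higher in 3D, where 30.4% of all tested genes were. They were SERPINA1 (1.16 ± 0.18, limma adjusted p = 0.0115), AADAC (0.92 ± 0.09, 0.00506), FGB (0.82 ± 0.15, 0.0164) and FGA (0.68 ± 0.15, 0.0242), whereas FGG (0.28 ± 0.13, 0.146) and A1CF (0.03 ± 0.08, 0.763) did not pass. Of these, FGB alone was higher in all pairs of both lines. Without any 1 of the 4 A549 arrays, of either culture and treatment, neither the members nor any other gene passed. SERPINA1 then stood at 1.04 to 1.28, AADAC at 0.87 to 0.97, FGB at 0.76 to 0.89 and FGA at 0.58 to 0.78. Without the HCC827 3D control or 2D control array FGG passed as well, at 0.41, where 73.9% and 74.3% of all genes passed. The actin 3′ minus 5′ signal rose in the same comparison, from -0.14 to -0.05 in 2D to 1.67 to 2.64 in 3D, and its part in these differences was not tested.

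Different probe sets of a gene did not give the same scaffold difference. In A549 the mean of the pairs ranged from -0.08 to 1.48 over the 5 probe sets of FGA (4 above 0), from -0.22 to 0.83 over the 4 of FGB (3 above 0) and was 0.32 and 0.75 for the 2 of FGG. CP was higher with all 4 of its probe sets, by 1.32 to 1.97. The 4 of TF ranged from 0.04 to 3.52 and the 4 of SERPINA1 from 0.40 to 2.87, and each gene had 1 probe set that lay below the median of every array. The 2 of A1CF stood at -0.51 and -0.13, and AADAC had a single probe set. The A549 scaffold difference of FGA therefore depends on the probe set, and where each probe set lies along its transcript was not used here.

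**Figure D4:**
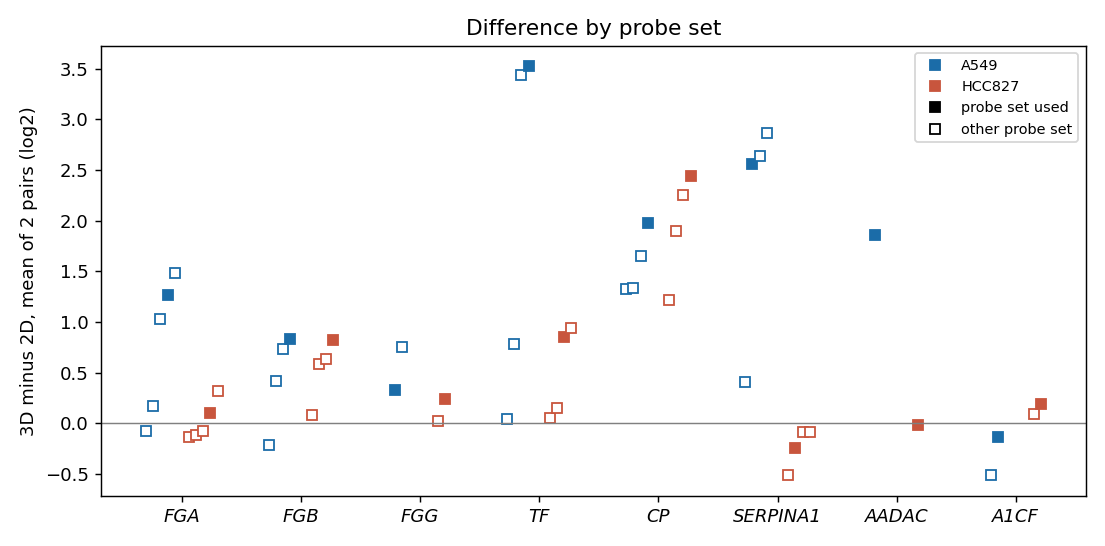
Mean difference between 3D and 2D (log2, y axis) for every probe set of each gene (x axis), in A549 and HCC827, filled for the probe set used. All 4 CP probe sets lie above 1.2 in both lines, while those of FGA in A549 spread from -0.08 to 1.48.

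Other plasma protein genes moved in both directions on the scaffold. In A549, 4 of 15 were higher and 3 lower, with a median of 0.22 against 0.13 over all genes, of which 16.3% were higher and 6.01% lower. Cortisol-binding globulin, SERPINA6 (1.01 ± 0.19, limma adjusted p = 0.0321), and the plasmin inhibitor SERPINF2 (0.67 ± 0.11, 0.0250) were higher. APOH (-0.95 ± 0.15, 0.0243) and ITIH2 (-0.80 ± 0.16, 0.0356) were lower. AHSG, 1 of the 4 higher genes, passed the filter through A549 3D arrays alone and therefore had to be higher there. In HCC827, 3 of 15 were higher and 0 lower, where 19.7% and 13.7% of all tested genes were, with SAA1 at 1.64 ± 0.12 (0.0106). AHSG was 1 of these 3 as well (0.41 ± 0.10, 0.0410), although it lay below the array median on every HCC827 array. SOCS3, the feedback inhibitor induced by IL-6 signalling, was higher in 3D in A549 (0.57 ± 0.10, 0.0297) and HCC827 (0.75 ± 0.10, 0.0139), the only one of the 11 IL-6 and glucocorticoid genes to pass in either line. Of the 8 transcription factors 0 passed in A549 (median 0.05) and 1 in HCC827, CEBPB (-0.67 ± 0.13, 0.0239).

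Among the 16 iron and copper genes tested beside TF and CP, 3 were higher and 1 lower in A549 3D, and 2 were higher and 4 lower in HCC827 3D. Of all tested genes, 16.3% were higher and 6.01% lower in A549 3D, and 19.7% were higher and 13.7% lower in HCC827 3D. The iron importer SLC11A2 was higher in A549 (0.76 ± 0.11, limma adjusted p = 0.0227) and HCC827 (1.12 ± 0.11, 0.0110), as was the iron-siderophore binding lipocalin LCN2 (1.12 ± 0.22, 0.0369, and 2.22 ± 0.22, 0.0110). The haem oxygenase HMOX1 was lower in A549 (-1.75 ± 0.14, 0.0177) and HCC827 (-1.09 ± 0.14, 0.0138). The transferrin receptor TFRC was lower in HCC827 (-1.72 ± 0.41, 0.0408) and stood at -0.90 ± 0.41 in A549 (0.186). Of the 11 coagulation genes, THBD (1.32 ± 0.15, 0.0183) and the tissue factor inhibitor TFPI (1.01 ± 0.17, 0.0284) were higher in A549 3D, and THBD was lower in HCC827 3D (-0.56 ± 0.15, 0.0487). Of the 7 esterases and editing partners, 2 were higher and 1 lower in A549 3D, and 2 were higher and 1 lower in HCC827 3D. CES1 was higher in A549 3D (1.30 ± 0.18, 0.0218). KHSRP read 9.75 and 9.64 in A549 2D (control, then gefitinib) and 11.48 and 11.43 in A549 3D. SYNCRIP read 10.86 and 10.66 in A549 2D and 9.70 and 9.65 in A549 3D. Without any 1 of the 4 A549 arrays 0 genes of all passed for 3D minus 2D, in A549 or in HCC827.

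TF and CP had other nearest profiles than the fibrinogen chains. The closest to TF were COL7A1 (0.49), ITGB4 (0.50) and SLC29A4 (0.53), and the closest to CP were the mucin MUC5B (0.56), PON3 (0.77) and TPM2 (0.78), against median distances of 1.60 and 2.27 over 11918 genes.

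The A549 gefitinib pairs of the members ranged from -0.65 (SERPINA1 in 3D) to 0.64 (TF in 3D). The SD of these differences over all tested genes was 0.165 in 2D and 0.165 in 3D. Over the 2 A549 pairs, 0 of 8 genes passed, and 0 had an unadjusted p under 0.05; 0% of all tested genes passed and 86 had an unadjusted p under 0.05. The mean differences were 0.21 ± 0.21 for FGA, 0.06 ± 0.22 for FGB, 0.28 ± 0.19 for FGG, 0.21 ± 0.30 for TF, 0.19 ± 0.39 for CP, -0.40 ± 0.26 for SERPINA1, 0.04 ± 0.13 for AADAC and -0.18 ± 0.11 for A1CF (limma adjusted p = 1.00 for each). SERPINA1, with the probe set used, was lower on the gefitinib array in both cultures, by -0.16 in 2D and -0.65 in 3D. A1CF was too with its probe set, by -0.23 and -0.12, where 20% of all tested genes were lower in both cultures. The other SERPINA1 probe sets stood at 0.23, 0.15 and -0.07 in 2D and at -0.74, -0.54 and -0.27 in 3D. The other A1CF probe set stood at -0.06 in 2D and 0.05 in 3D. With the probe set used, FGA, FGG and CP were higher in both cultures, 3 of 8 genes where 39.6% of all tested genes were. TF stood at -0.21 in 2D and 0.64 in 3D.

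In HCC827 3D the gefitinib array stood below the control array in CP by -1.53, in FGB by -1.04, in SERPINA1 by -0.96 and in TF by -0.76, and above it in FGG by 0.56, in FGA by 0.37, in AADAC by 0.32 and in A1CF by 0.06. These are differences between single arrays. The SD of such differences over all tested genes was 0.416 in HCC827 3D and 0.433 in HCC827 2D, wider than the 0.165 of each A549 pair. A difference of -1 or beyond, as for CP and FGB, was seen in 3.15% of all tested genes, and a difference of 1 or beyond, which 0 members reached, in 0.797%. FGG, FGA, AADAC and A1CF lay below the array median on both arrays, so their small positive differences lie in the range of unexpressed probe sets. In a limma fit without both HCC827 2D arrays, which takes its spread from A549 and assumes that HCC827 varies alike, 5 of 8 genes passed, where 27.2% of all genes did; 4 were lower, where 20.5% of 11804 genes were, and 1 was higher, where 6.71% were. CP, FGB, SERPINA1 and TF were lower and FGG was higher, each with the probe set used. The other FGG probe set stood at -0.12 for this pair, and the other FGB probe sets at -0.58, -1.18 and 0.38. All other probe sets of CP, SERPINA1 and TF were lower on the gefitinib array as well. The actin 3′ minus 5′ signal was 2.34 on the control and 2.64 on the gefitinib array and that of GAPDH 0.97 and 1.57, and their part in these differences was not tested.

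**Figure D5:**
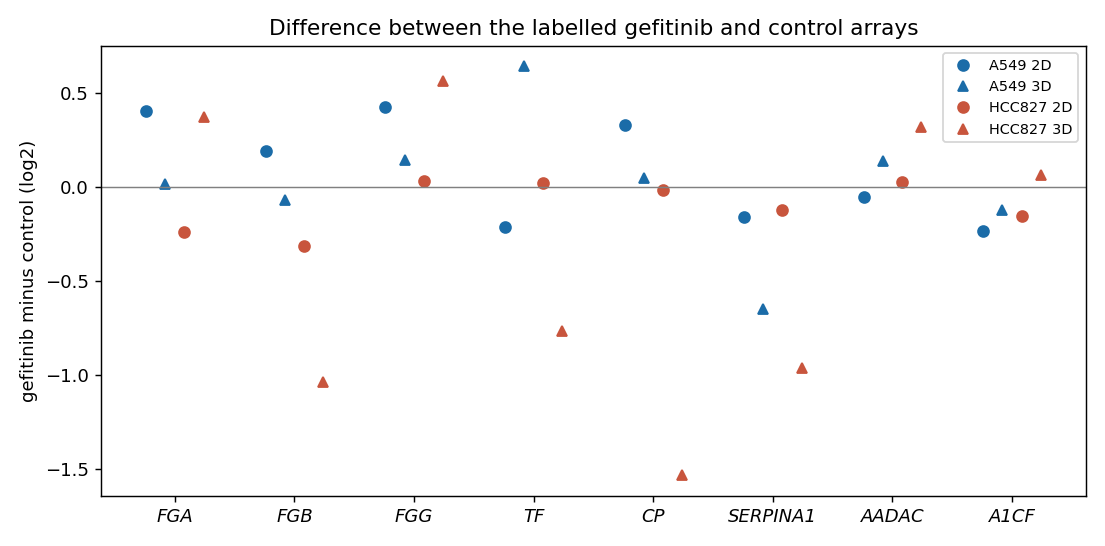
Difference between the array labelled gefitinib and that labelled control (log2, y axis) for each gene (x axis), 1 point for each line and culture. The HCC827 3D points of CP (-1.53), FGB (-1.04), SERPINA1 (-0.96) and TF (-0.76) lie lowest, and the HCC827 2D points lie between -0.32 and 0.03.

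The HCC827 2D arrays, whose labels DUSP6 and ETV5 went against, differed little in these genes. The array labelled gefitinib minus that labelled control was -0.32 for FGB, -0.24 for FGA, -0.16 for A1CF, -0.12 for SERPINA1, -0.01 for CP, 0.02 for TF, 0.02 for AADAC and 0.03 for FGG. Except for SERPINA1, at 10.33 and 10.21, all members lay below the array median on both arrays, so a fall in them was not measurable in 2D. Averaged over both cultures, 0 of 8 genes passed for gefitinib in HCC827 (0% of all tested genes), with FGB at an unadjusted p under 0.05 (-0.68 ± 0.22, limma adjusted p = 0.926); without the 2D control or the 2D gefitinib array 5 passed, as in the fit without both, where 27.4% of all genes did. The difference between the lines in the gefitinib response was past the threshold for 0 of 8 genes and 0% of all tested genes. Without both HCC827 2D arrays, or without either of them, it was past the threshold for 3, where 20.6% to 20.9% of all genes were. In the fit without both they were CP (-1.72, 1.64e-04), FGB (-1.10, 0.00161) and TF (-0.98, 0.0310).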

How the data were processed

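RNA of 8 cultures was hybridised to 1 array each. The authors deposited log2 signals for 49495 probe sets. RMA and R 3.2.1 are named in the submitters' processing notes, and these values were used with no further scaling. The array annotation gave 1 gene symbol for 45278 probe sets; the brightest probe set on average stood for its gene (18244 genes). The number of arrays limits precision.

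Genes above the array median on at least 2 arrays (11926) were fitted with limma 3.58.1 in R 4.3.3: mean, line, culture, treatment, line by culture and line by treatment, using empirical Bayes with a trended prior (2 residual and 2.36 prior degrees of freedom). Tests were two-sided with Benjamini-Hochberg adjustment over all tested genes and a threshold of 0.05. The residual comes from how the gefitinib differences vary with culture. The fit was tested on simulated data.

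Members and gene lists were chosen with earlier results of these data known. Differences of the members between the lines, and the scaffold differences of TF and CP, were therefore described without a test. List genes were tested. Where the lines were compared, they were counted only over genes above the array median in both lines, except in the count with single arrays left out. The text names all members, per list up to 4 genes past the threshold with the largest difference, DUSP6 and ETV5, the 3 nearest profiles and the neighbours of the fibrinogen genes; SAA1, HP, PLG, ALB, TFRC, HMOX1 in HCC827, CPS1 and other markers were named after their values were seen where they fall outside that rule. Normalization, probe set, filter, variance prior, terms of the fit and arrays were varied.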

Additional observations from a re-analysis of the deposited data

Results flagged for a closer look

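With the probe set used, the gefitinib values of CP had opposite signs in the lines, with a clear fall in 1 pair only. The gefitinib minus control difference was 0.33 (2D) and 0.046 (3D) in A549. In HCC827 it was -0.014 (2D, as labelled) and -1.53 (3D). None of the other CP probe sets had 1 sign in both A549 pairs and the opposite sign in both HCC827 pairs. In A549 they stood at 0.17, 0.35 and -0.10 in 2D and at -0.15, -0.23 and 0.12 in 3D. In HCC827 they stood, in the same order, at 0.16, 0.19 and -0.65 in 2D and at -1.12, -1.43 and -0.45 in 3D. For the probe set used, the difference between the lines did not pass the threshold in the fit over all arrays (limma adjusted p = 0.997). With it, CP lay below the array median on both HCC827 2D arrays, whose labels are in doubt. A1CF stood at -0.19 (control pair) and -0.079 (gefitinib pair) for 3D minus 2D in A549 and at 0.085 and 0.30 in HCC827, where it lay below the array median on every array (interaction adjusted p = 0.432).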

How the results depend on the processing

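Members past the threshold were counted again under 9 other settings. For 3D minus 2D in HCC827, cyclic loess and arrays centred on their medians each gave 1 gene (FGB) in place of 0, and leaving out the line-by-treatment term gave 1 (AADAC) in place of 0 for the interaction of line and culture. Without both HCC827 2D arrays the count was 5 in place of 3 for 3D minus 2D in A549, 5 in place of 0 for gefitinib in HCC827 and 3 in place of 0 for the difference between lines in gefitinib; culture in HCC827 could not be fitted there. The fit without these arrays takes its spread from A549 alone. Leaving out single arrays gave 0 to 5 genes for the mean scaffold difference (4 with all arrays), 0 to 5 in A549, 0 to 4 in HCC827, 0 to 4 for the interaction, 0 to 0 for gefitinib in A549, 0 to 5 for gefitinib in HCC827 and 0 to 3 for its difference between lines. The share of all genes past the threshold also moved with the arrays left out. The member counts of these fits are therefore not read as a result about the members. With the mean of a gene's probe sets FGG passed for the mean scaffold difference (0.33, adjusted p = 0.0461) and A1CF as lower in A549 3D (-0.32, 0.0445), and with the largest-variance probe set FGB did not pass for the mean (0.68, 0.0527). Of 390 tested member values under the 9 other settings, 357 kept direction and side of the threshold, 16 gained a call, 1 lost it, 16 changed sign without a call and 0 reversed a call. These do not include the fits with a single array left out, in which 262 of 384 values kept direction and side of the threshold. No paired analysis was possible because each condition had 1 array and the labels give no replicate numbers. Signals near the array median, as in most HCC827 values here, set the limit on what could be measured.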

Other observations

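Among the HCC827 arrays, the 3D control array held the highest level of 4 of the 8 genes, namely FGB (7.85), TF (7.89), CP (10.26) and SERPINA1 (10.51), where it held that of 33.5% of all tested genes. SAA1 (11.08 against 8.25 to 9.82 on the other HCC827 arrays) and LCN2 (14.84 against 11.91 to 13.75) were also highest there. The last 2 genes were chosen after their values were seen.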
